A study of Homo sapiens with 8 samples.

Results

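PKM and SLC25A3 are 2 human genes that each use 1 of 2 neighbouring, mutually exclusive exons, exons 9 and 10 in PKM and exons 3A and 3B in SLC25A3. They were chosen by name, and every deposited splicing event of either gene was taken, which gave 2 of the 12067 genes with an event and 28 of the 132938 tests over both RNA fractions. Their exons were followed in U2OS cells, an established human osteosarcoma line, 48 h after transfection with 20 nM EGFP siRNA, which targets no gene of these cells, or with 20 nM CHERP #2 siRNA, 1 siRNA against the splicing-associated protein CHERP. Stranded mRNA libraries came from whole cells or from the cytoplasm, 2 biological replicates in each of 4 groups, 8 libraries altogether, and the groups differed in nothing else that the sample records state. The model is 1 cell line and 1 siRNA sequence, so that a change cannot be told apart from other effects of that siRNA.

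Pyruvate kinase, encoded by PKM, catalyses the last step of glycolysis, the transfer of phosphate from phosphoenolpyruvate to ADP. Exon 9 gives the M1 form of the enzyme, found in muscle and brain, and exon 10 the M2 form, found in proliferating and tumour cells. SLC25A3 encodes the phosphate carrier of the inner mitochondrial membrane, which supplies ATP synthase with phosphate. Its exon 3A is used in heart and skeletal muscle and its exon 3B in most other tissues. In a mutually exclusive pair the spliceosome joins 1 exon of the pair to both flanking exons and leaves out the other, and proteins bound near the exons shift the balance.

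The exon sequences show how alike the members of each pair are, and they are printed in the direction of the transcript with the bases that differ from the partner exon in capitals. In GRCh37, the assembly also named hg19, PKM lies on the minus strand of chromosome 15, with exon 9 at chr15:72495363-72495529 and exon 10 at chr15:72494795-72494961. Both exons are 167 bases long, lie 401 bases apart and are coding in GENCODE 44.
PKM exon 9: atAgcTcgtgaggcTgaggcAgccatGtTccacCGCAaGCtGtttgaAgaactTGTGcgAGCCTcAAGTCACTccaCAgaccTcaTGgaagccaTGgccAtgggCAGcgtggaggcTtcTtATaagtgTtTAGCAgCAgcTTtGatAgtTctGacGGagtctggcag
PKM exon 10: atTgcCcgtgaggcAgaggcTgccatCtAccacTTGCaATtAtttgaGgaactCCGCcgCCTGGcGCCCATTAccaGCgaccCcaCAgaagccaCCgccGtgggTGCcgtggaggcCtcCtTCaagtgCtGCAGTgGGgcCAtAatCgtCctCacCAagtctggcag
The PKM exons held the same base at 105 of 167 positions and differed at 62, and 22 of their 55 whole codons stood for different amino acids. SLC25A3 lies on the plus strand of chromosome 12, with exon 3A at chr12:98989211-98989335 and exon 3B at chr12:98989505-98989626, both coding and 169 bases apart.
SLC25A3 exon 3A: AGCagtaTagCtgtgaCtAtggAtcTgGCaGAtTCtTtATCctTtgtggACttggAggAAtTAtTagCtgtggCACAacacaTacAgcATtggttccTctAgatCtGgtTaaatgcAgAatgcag
SLC25A3 exon 3B: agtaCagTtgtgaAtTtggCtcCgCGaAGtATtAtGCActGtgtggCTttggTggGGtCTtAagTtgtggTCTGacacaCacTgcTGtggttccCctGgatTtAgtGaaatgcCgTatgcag
Of 122 aligned positions of the SLC25A3 pair 81 were the same and 41 differed, and 12 of the 40 aligned codons stood for different amino acids. Exon 3A is 125 bases long, 1 codon more than exon 3B with 122 bases.

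A long form of exon 3A, at chr12:98989211-98989439, is also annotated, in 1 transcript of the nonsense-mediated decay class. It runs 104 bases further, to a length of 229 bases, and holds 3 stop codons in the frame of exon 3A, the first of them at codon 52 of the exon. Most reads counted on exon 3A were assigned to the long form. Reads in its extra bases can also come from RNA that keeps the surrounding intron. The 5′ splice site of the long form is therefore set beside that of the short form, with the exonic bases in capitals.
5′ site of short exon 3A: CAGgtttgt
5′ site of long exon 3A: GAGgtaagt
5′ site of exon 3B: CAGgtttgt
Against the 52810 skipped exons of the tables, the 5′ site of the short form lay at percentile 31.34 and that of the long form at percentile 97.9. Exon 3B has the same 9 bases at its 5′ site as short exon 3A, whereas its 3′ site stood at percentile 74.66 and that of exon 3A at percentile 37.88.

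The stretch before each PKM exon is shown because PTBP1, a repressor of exon 9, binds pyrimidine-rich RNA, and the letters TCTT, searched on the transcript strand alone, are in capitals in the 100 bases up to the exon.
Before PKM exon 9: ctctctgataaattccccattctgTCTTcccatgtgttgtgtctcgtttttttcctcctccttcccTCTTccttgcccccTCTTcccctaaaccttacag
Before PKM exon 10: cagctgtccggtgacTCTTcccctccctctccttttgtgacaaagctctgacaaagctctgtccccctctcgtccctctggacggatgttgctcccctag
The window before exon 9 held TCTT 3 times and that before exon 10 held it once. Of the same windows before all skipped exons 63.55% held TCTT at least once and 9.98% at least 3 times, and the windows of exons 3A and 3B held it 1 and 2 times. A match of 4 letters is a description of the sequence and not a bound site. The 3′ splice site of exon 10 scored at percentile 8.15 and that of exon 9 at percentile 37.31, while their 5′ sites lay close together at percentiles 66.9 and 63.51.

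Reads summed over all events came to between 29409956 and 35664568 in the whole-cell libraries and to between 5370756 and 6580099 in the cytoplasmic ones. The level of a form is its reads per effective length as a percentage of both forms, and its test is a quasi-binomial model with limma-moderated dispersion, with p-values adjusted over all events of a type by the Benjamini-Hochberg method and a threshold of 0.05. CHERP, the targeted gene, had 103 and 77 event reads in the EGFP whole-cell libraries and 3 and 10 in the CHERP whole-cell libraries. In the cytoplasm it had 31 and 21 reads against 3 and 4. Its whole-cell abundance fell by 3.46 on the log2(value + 0.01) scale (SE 0.574, adjusted p = 0.00147 by limma). Of 6 skeletal muscle markers none had a skipped exon or splice site event in the tables, which list spliced events alone, and of 4 bone markers RUNX2 had one. RUNX2, a bone transcription factor, had 16 and 18 event reads in the whole-cell controls and 0 and 3 in the CHERP libraries, and 16 and 20 against 3 and 6 in the cytoplasm. Its part in the results below was not tested. Fewer cells of a kind and less RNA per cell cannot be told apart in these bulk samples.

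PKM exon 9 was a rare form in every library and its level was higher with CHERP siRNA. In whole cells, exon 9 had 77 and 67 reads in the EGFP libraries and 253 and 252 reads in the CHERP libraries. Exon 10, over the same effective length, had 7261 and 5859 reads and then 6286 and 5968. The exon 9 level was therefore 1.05% and 1.13% with EGFP siRNA against 3.87% and 4.05% with CHERP siRNA, and the groups did not overlap. The mean rose from 1.09% ± 0.0575 to 3.96% ± 0.129 (SD, n = 2 each), a difference of 2.87 points and a 3.63-fold change. The odds ratio was 3.75, with a 95% interval of 2.53 to 5.57 (adjusted p = 8.31e-10, quasi-binomial with limma-moderated dispersion). Among the 13501 whole-cell MXE events, 1.6% were called in either direction, and PKM held rank 8 by p-value.

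The cytoplasm gave the same direction at lower depth. The controls had 21 and 23 reads of exon 9 and the CHERP libraries 81 and 80, beside 2928 and 2977 and then 2938 and 2444 reads of exon 10. These reads correspond to levels of 0.712% and 0.767% in the controls and 2.68% and 3.17% after CHERP siRNA, again without overlap. The mean rose by 2.19 points, from 0.739% ± 0.0386 to 2.93% ± 0.344 (SD, n = 2 each), or 3.96-fold, with an odds ratio of 4.01 and an interval of 2.11 to 7.64 (adjusted p = 0.00145, quasi-binomial with limma-moderated dispersion). Of the cytoplasmic MXE events 0.863% were called.

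**Figure D1:**
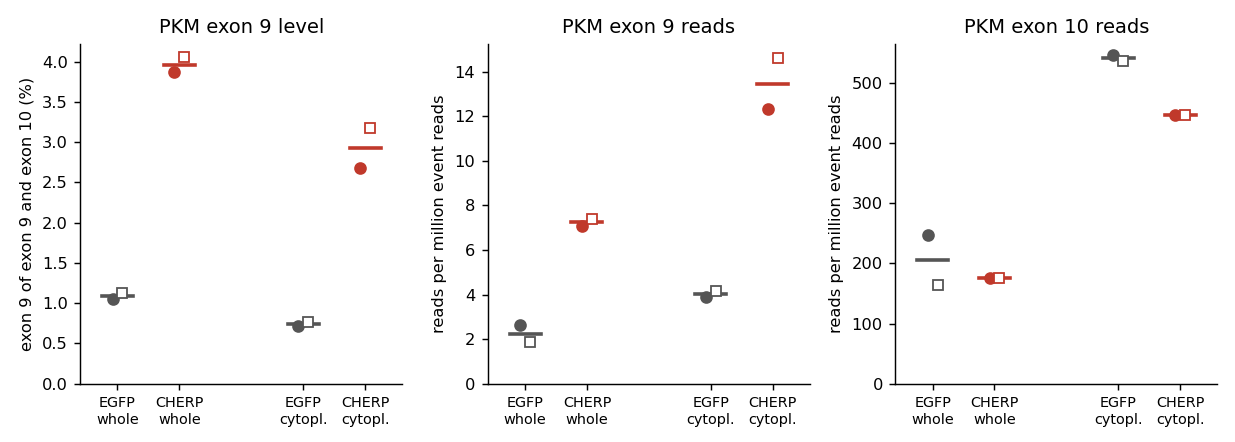
PKM exon 9 and exon 10 in each library, as the exon 9 level in percent and as reads scaled to the event reads of the library (RPM) for each exon (y axes), by siRNA and fraction (x axis). Filled circles are the first and open squares the second listed library, and bars are means. Exon 9 levels lie at or under 1.13% with EGFP siRNA and at or over 2.68% with CHERP siRNA.

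Scaled to the event reads of each library, the larger relative difference lay in exon 9. In reads per 1000000 event reads (RPM), exon 9 had 2.62 and 1.88 in the EGFP whole-cell libraries against 7.09 and 7.40 in the CHERP ones, 3.22-fold in the mean. For exon 10 the RPM were 246.9 and 164.3 against 176.3 and 175.2, so that the CHERP values lay between the control values. In the cytoplasm, exon 9 went from 3.91 and 4.15 to 12.3 and 14.6 RPM, while exon 10 had 545 and 537 with EGFP siRNA against 446.5 and 446.3 with CHERP siRNA. These scaled values carry no test of their own.

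The 2 libraries of a group differed little in the exon 9 level. The Pearson dispersion of the event itself, where 1 is the spread of binomial sampling, was 0.240 in whole cells and 0.607 in the cytoplasm. The test used 4.45 and 3.68, the values of MXE events with that many reads. A dispersion estimated where the rarer form of an event had 10 or more reads in a group kept the whole-cell call (adjusted p = 0.000314) and lost the cytoplasmic one (adjusted p = 0.0817). Counting groups with reads of 1 form alone as groups without spread, an alternative chosen after seeing the data, gave 0.0874 and 0.752, and limma on log2 odds gave 0.403 and 0.502, so that both calls were lost. With any 1 library left out, the whole-cell call remained, at adjusted p between 6.34e-10 and 0.000579, and the cytoplasmic one did not, at 0.364 to 0.856 for differences of 1.94 to 2.43 points.

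The change in exon 9 did not differ detectably between the fractions. The difference of the log odds, cytoplasm minus whole cell, was 0.067 (SE 0.422, adjusted p = 0.999 for the interaction in the same quasi-binomial model), and 0.241% of the 2905 MXE events in both tables were called. The fractions were read at different effective lengths, 311 bases in whole cells and 240 in the cytoplasm for this event, so fraction and read length cannot be told apart.

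The share of calls was also taken over events that started as low as exon 9. Among whole-cell MXE events whose mean reached 50 reads and whose control level lay under 5%, limits set with the PKM level known, 26 of 1414 were called (1.84%, beside 1.6% of all MXE events), 17 of them upward. In the cytoplasm 5 of 208 such events were called (2.40%, beside 0.863%), all 5 upward. PKM is 1 of the called events in each fraction. A control level under 5% leaves less room for a fall than for a rise, so the counts of directions are a description alone.

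**Figure D2:**
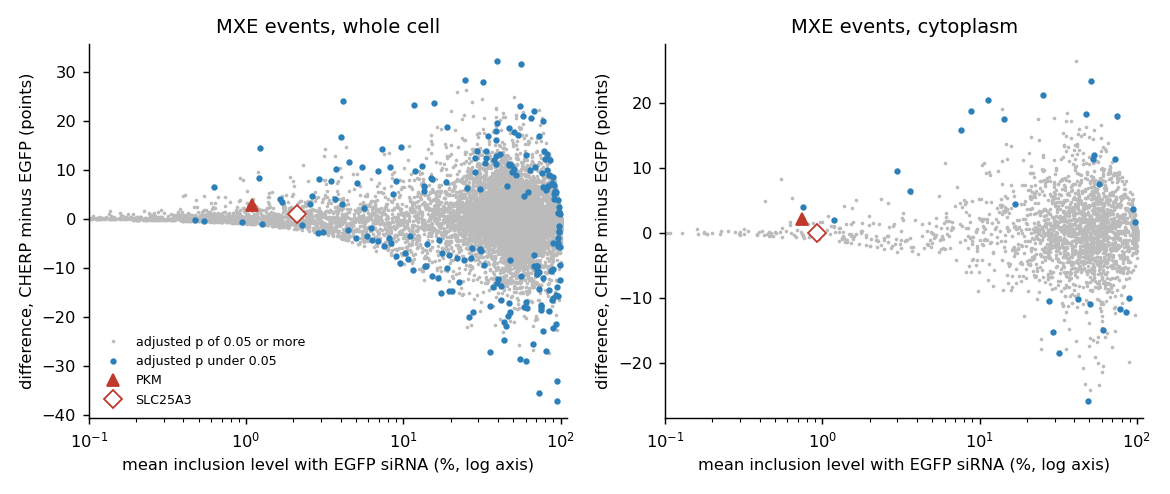
MXE events whose mean reached 50 reads, by mean control level (x axis, percent, log axis, events under 0.1% not drawn) and difference CHERP minus EGFP in points (y axis), in whole cells and cytoplasm. Blue points have an adjusted p under 0.05. The PKM triangle sits at 2.87 and 2.19 points, and the SLC25A3 diamond, the long form of exon 3A, at 0.96 and 0.005 points.

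Joining of the exons that flank the PKM pair, with neither exon 9 nor exon 10, was close to absent. Such reads numbered 3 and 6 in the EGFP whole-cell libraries and 0 and 0 in the CHERP ones, and 0 and 1 against 2 and 0 in the cytoplasm. Set against these reads alone, exon 9 was included at 92.2% and 83.8% with EGFP siRNA and at 100% in both CHERP libraries (adjusted p = 0.111), and in the cytoplasm at 100% and 87.5% against 92.5% and 100% (adjusted p = 0.870). Exon 10 lay between 99.78% and 100% in all 8 libraries, with adjusted p of 0.650 in whole cells and 0.790 in the cytoplasm. These adjusted p come from the quasi-binomial test over skipped exons, of which 0.893% were called in whole cells and 0.254% in the cytoplasm. The tables count reads within an exon as well as on its junctions, and they list no retained intron of PKM, so RNA that keeps the introns around the pair was not measured.

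The other PKM events gave no call. An MXE event was deposited for 2 exons upstream of the pair, with 46.4% and 47.8% against 49.2% and 48.0% of the reads per length (adjusted p = 0.780), although each exon alone was included at 99.9779% or more in every whole-cell library. An exon of 117 bases at chr15:72513509-72513625 was included at 0.262% and 0.184% with EGFP siRNA against 0.147% and 0.115% with CHERP siRNA, against its better covered skipping form (adjusted p = 0.784). An alternative 5′ site with the long exon chr15:72500958-72501232 was used at 0.338% and 0.237% against 0.195% and 0.122% (adjusted p = 0.785), where 1.13% of whole-cell and 0.617% of cytoplasmic A5SS events were called.

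In SLC25A3 exon 3B was the main form in every library, and no change in the choice between 3A and 3B was detected. In whole cells the long form of exon 3A had 35 and 31 reads in the controls and 35 and 29 in the CHERP libraries. Exon 3B had 1594 and 803 reads and then 704 and 741. The long-form level was 1.54% and 2.68% in the controls and 3.42% and 2.72% after CHERP siRNA, a difference of 0.96 points with an odds ratio of 1.61 and an interval of 0.948 to 2.73 (adjusted p = 0.604). Both CHERP values lay above both controls, the lower of them at 2.72% next to a control at 2.68%.

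In the cytoplasm the 2 groups had the same reads of the long form. It had 6 and 10 reads in the controls and 10 and 6 in the CHERP libraries, beside 574 and 537 and then 614 and 464 of exon 3B. The levels of 0.670% and 1.19% against 1.04% and 0.828% overlapped, with an odds ratio of 1.03 and an interval of 0.403 to 2.63 (adjusted p = 0.994), wide enough to hold a doubling. The interaction of siRNA and fraction was -0.45 in log odds (SE 0.583, adjusted p = 0.959).

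Reads of the short, coding form of exon 3A were fewer still. There were 6 and 0 in the whole-cell controls and 0 and 6 in the CHERP libraries, or levels of 0.371% and 0% against 0% and 0.794% (adjusted p = 0.901). The libraries with 0 reads allow up to 0.368% and 0.420%, the level of 3 reads, for counting error alone. In the cytoplasm the short form had 2 and 3 reads against 2 and 1 (adjusted p = 0.912). Where the 2 lengths of exon 3A were compared directly, as an A5SS event, the long form had 30 and 33 against 35 and 28 reads in whole cells and the short form 1 and 0 against 0 and 2. In the cytoplasm these reads were 4, 7, 8 and 6 for the long form and 0, 0, 0 and 1 for the short one, and neither fraction gave a call (adjusted p = 0.908 and 0.835).

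Long exon 3A lies inside an intron whose retention was measured as well, and reads within its extra 104 bases can come from RNA that keeps that intron. Per 100 bases of effective length, long exon 3A had 9.38 and 8.31 reads in the whole-cell controls and 9.38 and 7.77 in the CHERP libraries. The retained intron had 13.4 and 15.6 and then 9.34 and 11.8, more than the exon in 3 of the 4 libraries and about as many in the first listed CHERP library. In the cytoplasm the exon had 1.99 to 3.31 reads and the intron 0.481 to 1.80 per 100 bases. The share of the long-form reads that came from retained introns was not tested.

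**Figure D3:**
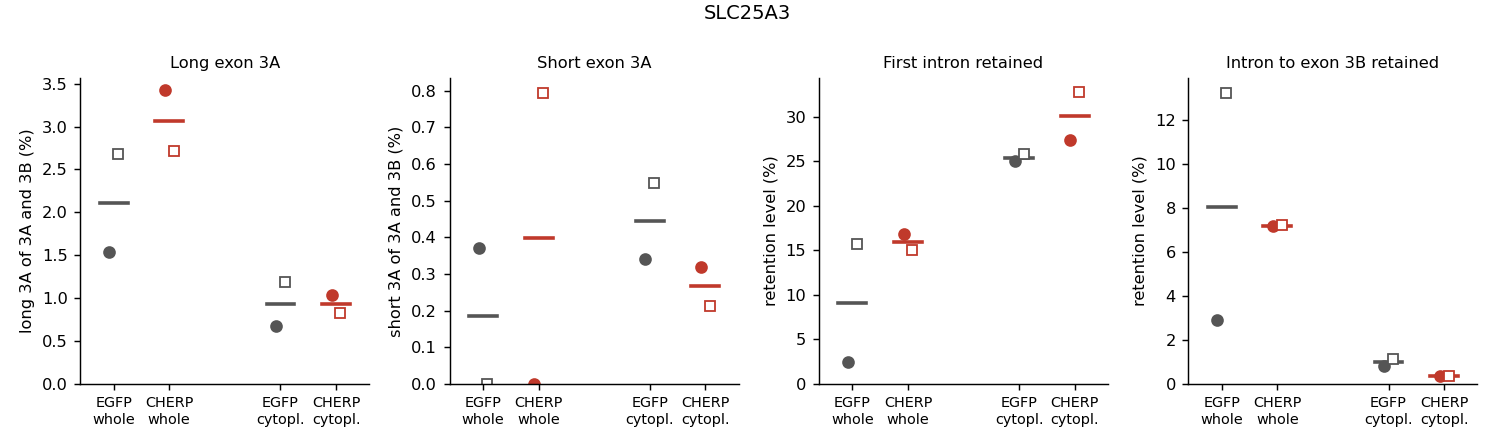
SLC25A3 levels in each library, in percent (y axes), for long and short exon 3A and for retention of the first intron and of the intron up to exon 3B, by siRNA and fraction (x axis). Filled circles are the first and open squares the second listed library, and bars are means. The EGFP whole-cell libraries lie far apart for both introns, at 2.45% and 15.7% and at 2.88% and 13.2%.

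The intron from chr12:98987914-98989504, which holds exon 3A and ends at exon 3B, is the SLC25A3 retained intron with the most reads. In whole cells it had 233 and 270 reads retained and 653 and 147 spliced with EGFP siRNA, and 162 and 204 retained and 174 and 218 spliced with CHERP siRNA. Retention was 2.88% and 13.2% in the controls and 7.17% and 7.21% after CHERP siRNA, so both CHERP values fell between the controls. The adjusted p was 0.182 at a difference of -0.86 points, and the odds pooled over reads leaned the other way, to a ratio of 1.48. Without the first listed EGFP library the difference was -6.04 points (adjusted p = 0.0184), and without the second it was 4.31 points (adjusted p = 5.22e-07).

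In the cytoplasm, where the control libraries were alike, retention of this intron was lower with CHERP siRNA but missed the threshold. It had 28 and 30 retained reads in the controls and 12 and 8 after CHERP siRNA, beside 150 and 115 and then 158 and 104 spliced reads. The levels were 0.812% and 1.13% against 0.332% and 0.336%, without overlap, for an odds ratio of 0.349 and an interval of 0.178 to 0.685 (adjusted p = 0.0558). With events under a mean of 10 or 50 reads left out, the adjusted p of the quasi-binomial test was 0.0341 and 0.0259. With the dispersion from 10 or more reads of the rarer form it was 0.116, and limma on log2 odds gave 0.525. With any 1 library left out, the difference lay between -0.80 and -0.48 points. Of RI events 3.26% were called in whole cells and 2.12% in the cytoplasm.

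The first intron of SLC25A3, at chr12:98987519-98987752, was called as more retained in whole cells, and that call rested on 1 library. The EGFP libraries held 60 and 21 retained and 911 and 43 spliced reads, the CHERP libraries 62 and 56 retained and 117 and 121 spliced. Retention was 2.45% and 15.7% in the controls and 16.8% and 15.0% after CHERP siRNA, so the groups overlapped. The mean difference was 6.83 points (adjusted p = 4.13e-09), and without the first listed EGFP library it was 0.21 points (adjusted p = 1). The dispersion of this event was 29.7, against 2.65 used in the test, and for the intron up to exon 3B it was 88.4 against 2.75. In the cytoplasm the first intron was retained at 24.98% and 25.8% against 27.4% and 32.8% (adjusted p = 0.796), and the change differed between the fractions (adjusted p = 0.0201 for the interaction, which called 0.188% of RI events). Without the first listed EGFP whole-cell library the interaction had the other sign (adjusted p = 0.933), and its call was lost in 6 of 8 fits that left out 1 library and with the dispersion from 10 or more reads of the rarer form (adjusted p = 0.892).

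The first listed EGFP whole-cell library stood apart at the 5′ end of SLC25A3 and not at its 3′ end. It had 31.0 RPM of the spliced first intron, 25.7 times the 1.21 of the other control, with 3.28 and 3.55 in the CHERP libraries. For the intron up to exon 3B it had 22.2 spliced RPM against 4.12, and for exon 3B 54.2 against 22.5. For a coding exon near the 3′ end, chr12:98994949-98995059, it had 83.1 against 82.3, and this exon was skipped in 0, 0, 0 and 1 reads of the 4 libraries. The value of exon 3B enters the 3A level above, where leaving out the library gave a difference of 0.39 points instead of 0.96.

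**Figure D4:**
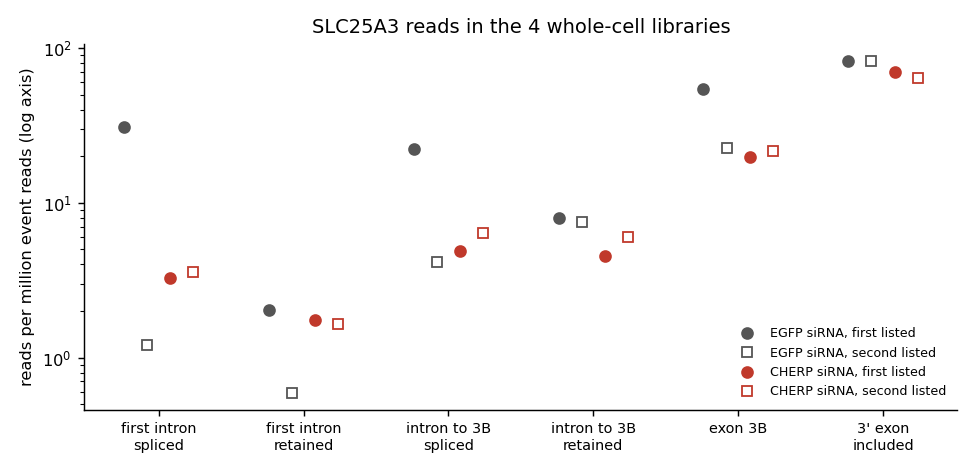
SLC25A3 RPM (reads scaled to the event reads of the library, y axis, log axis) in the 4 whole-cell libraries for 6 features from the 5′ to the 3′ end of the gene (x axis). Filled circles are the first and open squares the second listed library of each siRNA. The first EGFP library reaches 31.0 for the spliced first intron against 1.21 in the second, and 83.1 against 82.3 at the 3′ exon.

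Over all deposited events of both genes, 2 of 16 whole-cell events and 1 of 12 cytoplasmic events were called: PKM exon 9 in each fraction and the first SLC25A3 intron in whole cells. Over all events of the 5 types 1.12% were called in whole cells and 0.413% in the cytoplasm. At an unadjusted p under 0.05 there were 5 and 2 of these member events, beside 6.51% and 4.24% of all events. The deposited events of a gene share reads and flanking exons, so they are not separate measurements. The other MXE events named by the likeness of their levels in all 8 libraries, among 1488 whose mean reached 50 reads in both fractions, were those of UBE2F, LGALS1 and SEPT2 for PKM, with summed distances of 6.55, 6.59 and 6.998 points. LGALS1, which encodes a galectin, had a difference of 4.03 points in whole cells (adjusted p = 5.49e-14) and 1.93 points in the cytoplasm (adjusted p = 0.000266). For SLC25A3 they were DTYMK, KARS and ANXA2, at 4.63, 4.69 and 5.47 points.

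No change in the abundance of PKM was detected. Abundance was the sum of reads per length over the skipped exon and splice site events of a gene, on the log2(value + 0.01) scale, and was tested with limma. PKM had 7.46 and 7.27 with EGFP siRNA against 7.44 and 7.34 with CHERP siRNA in whole cells, a difference of 0.03 (SE 0.102, adjusted p = 0.866). In the cytoplasm it had 6.11 and 5.997 against 5.99 and 5.89, a difference of -0.11 (SE 0.0582, adjusted p = 0.135), which was -0.21 when libraries were scaled to their totals (adjusted p = 0.00871). SLC25A3 had 3.41 and 3.49 against 3.25 and 3.13 in whole cells, both CHERP values under both controls, at a difference of -0.26 (SE 0.109, adjusted p = 0.0908). Its value rested almost wholly on the coding exon near the 3′ end, with a mean of 2520.5 of 2552.75 reads. With MXE and RI reads added, where the first listed EGFP library stood apart, the whole-cell difference was -0.61 (SE 0.242, adjusted p = 0.0774). In the cytoplasm SLC25A3 had no skipped exon event, and its only splice site event, that of exon 3A, had a mean of 6.5 reads, under the limit of 20. With MXE and RI reads added the cytoplasmic difference of SLC25A3 was -0.08 (SE 0.0927, adjusted p = 0.487). Abundance was called for 37.1% of 9660 genes in whole cells, 1813 up and 1773 down, and for 48.2% of 7293 in the cytoplasm, 1791 up and 1724 down. Scaling to totals shifted the cytoplasmic median by -0.10 and gave 1406 up and 2108 down.

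The known regulators of PKM exon choice were lower with CHERP siRNA in the cytoplasm. PTBP1, HNRNPA1 and HNRNPA2B1 repress exon 9, and SRSF3 favours exon 10. In whole cells 2 of the 6 listed genes fell, none rose and 4 did not pass, with a median of -0.28 against 0.01 for all genes. The share called in either direction was near the 37.1% of all genes, of which 1773 of 9660 fell. The listed genes that fell were SRSF3, by 0.43 on the log2 scale (SE 0.0965, adjusted p = 0.00708 by limma), and HNRNPA1, by 0.30 (SE 0.0947, adjusted p = 0.0325 by limma). PTBP1 differed by -0.27 (adjusted p = 0.0582) and HNRNPA2B1 by -0.19 (adjusted p = 0.137). PTBP2 differed by -0.52 (adjusted p = 0.0726 by limma) and RBM4 by -0.05 (adjusted p = 0.796 by limma). In the cytoplasm all 6 fell, with a median of -0.38, where 48.2% of all genes were called in either direction and 1724 of 7293 fell. PTBP2 was at -0.78 (adjusted p = 0.0164 by limma) and RBM4 at -0.25 (adjusted p = 0.0389 by limma). The roles named above do not cover these 2 genes, so the list is not a set with 1 direction of action on exon 9. There PTBP1 fell by 0.36 (adjusted p = 0.000891), HNRNPA1 by 0.41 (adjusted p = 0.00219), HNRNPA2B1 by 0.32 (adjusted p = 0.000588) and SRSF3 by 0.48 (adjusted p = 0.000161). With total scaling the counts were 4 of 6 and 6 of 6. HNRNPA1 has many processed pseudogenes, so its reads may be split between copies. Splicing events of these genes were called too, 1 MXE event each of PTBP1 and HNRNPA1 in whole cells and 3 skipped exons of HNRNPA2B1 in whole cells and 2 in the cytoplasm. These values stand beside the exon 9 result, and their part in it was not tested.

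Regulators of tissue-specific exons moved in both directions. CELF1 rose by 0.72 in whole cells and 0.51 in the cytoplasm (adjusted p = 0.000557 and 0.000237 by limma). MBNL1 fell by 0.75 and 0.67 (adjusted p = 0.000836 and 0.000188), and QKI, which binds the RNA of many muscle genes, fell by 0.66 and 0.84 (adjusted p = 0.00329 and 2.13e-05). Of the 5 listed genes 1 rose and 2 fell in whole cells, and 1 rose and 3 fell of 4 tested in the cytoplasm. Over all genes 37.1% and 48.2% were called, and so few listed genes allow no comparison with these shares.

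**Figure D5:**
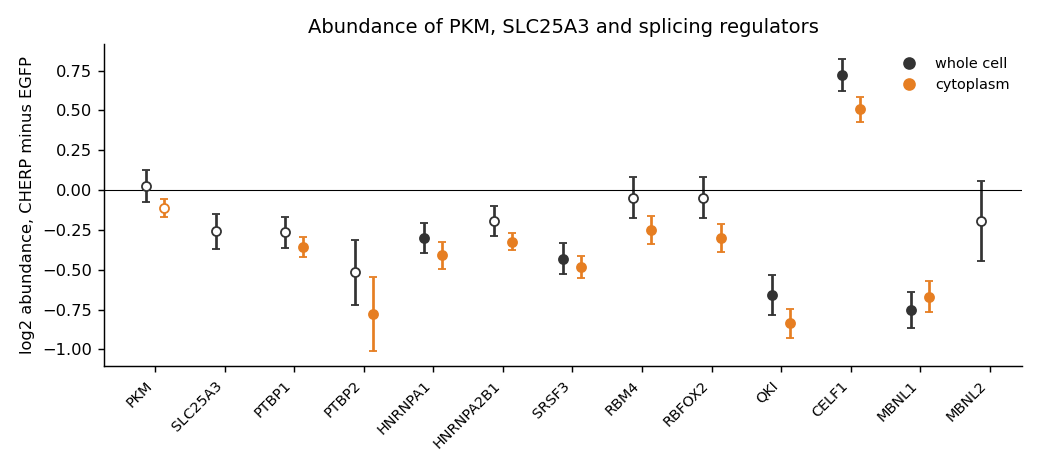
Difference of log2 abundance, CHERP minus EGFP (y axis), with its SE, for PKM, SLC25A3 and 11 splicing regulators (x axis) in whole cells and cytoplasm. Filled points have an adjusted p under 0.05. PKM is at 0.03 and -0.11 with open points, and all 6 regulators of the PKM exons are filled in the cytoplasm.

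Genes of the pathways that use the 2 proteins were listed as well. Of 15 tested glycolysis genes 4 rose and 1 fell in whole cells, with a median of 0.12, and of 12 in the cytoplasm 5 rose and 2 fell, with a median of 0.15. With total scaling 4 rose and 3 fell in the cytoplasm. Over all genes 37.1% and 48.2% were called. In whole cells the shares called of the glycolysis genes and of the mitochondrial genes that follow lay near or below this background. In the cytoplasm the share of the glycolysis genes lay above it and that of the mitochondrial genes below it. With so few genes these shares are a description alone. PFKM, the muscle form of phosphofructokinase, rose by 1.67 (SE 0.113, adjusted p = 1.3e-05 by limma), GPI, which interconverts the hexose phosphates, by 0.89 (adjusted p = 0.000313) and LDHB, a lactate dehydrogenase subunit, by 0.71 (adjusted p = 0.000518) in whole cells. Of the genes for ADP/ATP carriers, another phosphate carrier and ATP synthase, 5 of 15 rose in whole cells and 5 of 16 in the cytoplasm, and none fell. Among them ATP5B rose by 0.36, ATP5O by 0.35 and ATP5G3 by 0.44 in whole cells (adjusted p = 0.0195, 0.0218 and 0.0226 by limma). With total scaling 3 of 15 and 4 of 16 rose, and ATP5A1 fell in the cytoplasm.

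Among 14 other genes with a known mutually exclusive pair, 12 had an MXE event in whole cells, and 4 of their 28 events were called, where 1.6% of all MXE events were. At the event with the most reads of each gene, the level of TPM2, a muscle and fibroblast tropomyosin, fell by 11.8 points from 55.6% to 43.8% (adjusted p = 3.84e-05). For U2AF1, the small subunit of the U2 auxiliary factor, the level fell from 32.5% to 22.99% (adjusted p = 3.52e-05). That of MAPK14, a stress kinase, fell by 18.9 points from 84.1% to 65.2% (adjusted p = 0.00512). These levels are the share of 1 exon of a pair and not the amount of the gene. The whole-cell abundance of U2AF1 was not called (-0.23, adjusted p = 0.115 by limma). The fourth called event, a further one of the kinase gene MAPK8, rose by 8.36 points from 1.21% to 9.57% (adjusted p = 0.00297). In the cytoplasm 2 of 17 events were called, beside 0.863% of all MXE events, those of TPM2 at -11.0 points (adjusted p = 0.000668) and U2AF1 at -10.4 points (adjusted p = 0.00462). These genes were named after their values were seen. By abundance in whole cells 3 of 13 rose, ACTN1 (1.79) and MAPK8 (1.00) among them, and 2 fell, among them TPM3 (-1.23). This share called was near the 37.1% of all genes.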

How the data were processed

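RNA-seq of whole-cell and cytoplasmic RNA from U2OS cells was used. The methods describe TruSeq stranded mRNA libraries, mapped by the authors to hg19 with STAR 2.5.2b and passed to rMATS, whose version is not given in the sources used here. The authors deposited 10 rMATS tables, 1 for each of 5 event types and 2 fractions, with the reads of each form in each library, without normalization, and the effective length of the form. Reads within the event and on its junctions were counted. The tables also give the authors' p-values, FDR and level differences, and the expression table the authors' comparison of the cytoplasmic libraries, and none of these was used. A further 20 columns of inclusion levels were not used, since levels were computed from the reads.

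Each fraction was tested alone in R 4.3.3, over all events with a read in each group. limma 3.58.1 moderated the dispersion along mean reads, never below 1, and gave infinite prior degrees of freedom in all 10 tables, so that the spread of an event itself had no weight. For gene abundance, libraries were scaled by median ratios, and genes were tested from a mean of 20 reads in a library upward. Sequences were read from GRCh37 with pysam 0.24.0 and samtools 1.23.1, and exons from GENCODE 44 lifted to it, whereas the authors used GENCODE 19. Of the skipped exons 98.42% had AG before and GT after them. Splice sites were scored by log odds of 3 exonic and 6 intronic bases (5′) or 20 intronic and 3 exonic bases (3′) against 0.25 per base. Intervals cover 95% and rest on the test's dispersion. The quasi-binomial test within a fraction and the abundance test were tried on simulated data. The interaction test, limma on log2 odds and the sequence scores were not. The alternatives were other filters, dispersion rules, scalings and pseudocounts, limma on log2 odds, and leaving out each library.

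The 2 genes, the gene lists and the tests were chosen with earlier results of these data known. Named were the event with the most reads of each exon pair, exon and SLC25A3 intron, every called event, and in each list the 3 genes with the smallest whole-cell abundance p beside PTBP1, HNRNPA1, HNRNPA2B1 and SRSF3. Likeness in abundance was Pearson's r over 8 libraries after removal of the fraction means. Libraries are named as first and second listed, in the order of the table cells, since these carry no replicate number.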

Additional observations from a re-analysis of the deposited data

Results flagged for a closer look

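The effect of CHERP siRNA on the first intron of SLC25A3 differed between the fractions in the interaction test. The change in the log odds of retention, cytoplasm minus whole cell, differed by -1.54 (SE 0.354, adjusted p = 0.0201 in the quasi-binomial model), and 0.188% of the 1599 RI events in both tables were called. The call was lost in 6 of 8 fits that left out 1 library, at adjusted p between 0.0911 and 0.933, and with the dispersion from groups of 10 or more reads of the rarer form (0.892). Without the first listed EGFP whole-cell library the difference was 0.21, of the other sign.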

How the results depend on the processing

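No paired analysis was possible because the cells of the tables carry no replicate number. Where 1 library is left out, the lone library of its group is assumed to vary like the other group. In all 129 of 181 recomputed values kept their direction and their side of the threshold or, for counts of called events, the same count. The others include splice site percentiles, which have no threshold and moved with the reference exons. The cause of the other changes was not tested.

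The higher PKM exon 9 level kept its direction under every alternative run. Its whole-cell call (adjusted p = 8.31e-10) was lost when groups with reads of 1 form alone entered the dispersion (0.0874, an alternative chosen after seeing the data) and with limma on log2 odds (0.403). Its cytoplasmic call (0.00145) was lost under the same settings (0.752 and 0.502), with a dispersion from groups holding 10 or more reads of the rarer form (0.0817) and without any 1 library (0.364 to 0.856). Over all MXE events these 3 settings made 3, 0 and 113 calls instead of 216 in whole cells and 0, 0 and 1 instead of 36 in the cytoplasm, where a minimum of 50 reads gave 13. Limma on log2 odds still gave 1234 whole-cell and 371 cytoplasmic MXE events an unadjusted p under 0.05, and the dispersion with groups of 1 form gave 212 in the cytoplasm. For RI events the counts were 0, 0 and 75 instead of 121 and 0, 0 and 9 instead of 36, with 398 and 346 and with 93 and 178 at an unadjusted p under 0.05 where none was called. Without 1 library there were 52 to 287 and 0 to 1 MXE calls and 37 to 120 and 9 to 13 RI calls.

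The SLC25A3 exon 3A result changed direction in the cytoplasm at the short form (adjusted p = 0.912) and without the first listed library of either group, with p between 0.864 and 0.993 without 1 library. Retention up to exon 3B gave 5.22e-07 to 0.749 in whole cells without 1 library, in both directions, and was called in the cytoplasm with a minimum of 10 or 50 reads (0.0341 and 0.0259). Of the other member events 1 was called, 2 with the 10-read dispersion, and 0 with limma, with groups of 1 form or without the first EGFP library, where 2, 3 and 2 had an unadjusted p under 0.05. Without 1 library that count was 0 to 1. The interaction of PKM turned to the other sign once (adjusted p 0.993 to 1), that of the first SLC25A3 intron lay between 7.7e-05 and 0.933, and exon 9 against skipping in the cytoplasm between 0.906 and 1.

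With total scaling the log2 difference in abundance was -0.016 for PKM and -0.30 for SLC25A3 in whole cells (called) and -0.21 for PKM in the cytoplasm (called). Without 1 library these were -0.071 to 0.109, -0.31 to -0.20 (called without the first EGFP library) and -0.174 to -0.052 (called without the second EGFP library).

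With 2 libraries a group, the spread of 1 event is poorly known, and exon 3A rested on 0 to 35 reads a library, too few to show a change under the intervals given.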

Other observations

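Over the 8 libraries, after the mean of each fraction was removed, the genes whose abundance followed that of PKM most closely, among 7058 tested in both fractions, were GPR108 (r = 0.973), KDM3B (r = 0.931) and RMND5B (r = 0.922). The points share libraries and their scaling, so the values are a description. SLC25A3 was not compared, since its cytoplasmic abundance was not tested.

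The first intron of SLC25A3 was retained at 24.98% to 32.8% in the cytoplasmic libraries and at 2.45% to 16.8% in the whole-cell ones. For the intron up to exon 3B the order was the reverse, with 0.332% to 1.13% in the cytoplasm and 2.88% to 13.2% in whole cells. The tables of the fractions were made from reads of different effective length, and this difference was not tested.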
